A study of Sus scrofa with 2 samples.

Results

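Cyclic nucleotide phosphodiesterase genes were followed across the cell classes of the pig pancreas in a WT and a PIGinH11 library of single-nucleus RNA-sequencing. The 8 genes were PDE10A, PDE1A, PDE3A, PDE3B, PDE4B, PDE4D, PDE7B and PDE8B, taken by symbol from the 31908 genes of the count matrices. PDE10A was on the list because of its higher level in the beta nuclei of the PIGinH11 library, so that difference is described here and is not evidence of its own. The list as a whole was drawn up with earlier results of the same libraries known. The 13 other phosphodiesterase genes that could be found were PDE1B, PDE1C, PDE2A, PDE4A, PDE4C, PDE5A, PDE6A, PDE6B, PDE6C, PDE7A, PDE8A, PDE9A and PDE11A, and they served as the family around the 8.

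Phosphodiesterases hydrolyse cyclic AMP and cyclic GMP and so end the signals made by adenylyl and guanylyl cyclases. In beta cells, cyclic AMP raised by the incretin receptors for GIP and GLP-1 strengthens insulin secretion, and in duct cells the cyclic AMP raised by secretin drives bicarbonate secretion. The families differ in substrate: PDE3, PDE4, PDE7 and PDE8 enzymes mainly hydrolyse cyclic AMP, PDE5 and PDE9 enzymes hydrolyse cyclic GMP, and PDE1, PDE2, PDE10 and PDE11 enzymes take both.

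One piece of the pancreas body was taken from 1 WT and 1 PIGinH11 Bama pig, both 18 months old. PIGinH11 pigs carry 3 human sequences knocked in at the H11 locus, namely GIPRdn, hIAPP and the I148M form of PNPLA3, under promoters specific for beta cells or liver. Both pigs had received a control diet until 6 months of age and then, for 12 months, a high-fat and high-sucrose diet made of 37% sucrose, 53% control diet and 10% lard. With 1 library per group there was no replicate and no test between the groups, so every interval below is a 95% interval for counting error alone, and a difference between the libraries could come from genotype, from the individual pig or from the handling of its sample, which cannot be told apart here.

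After filtering, 11961 WT nuclei with a median of 2932 UMIs and 13146 PIGinH11 nuclei with a median of 1115 UMIs remained, and 60 barcodes occurred in both libraries before filtering. Nuclei were assigned to classes by marker genes, with every phosphodiesterase gene kept out of the clustering. The 11 classes with at least 20 nuclei in each library held, in WT and PIGinH11 respectively, 64 and 78 alpha-like, 117 and 143 beta-like, 24 and 57 delta-like, 8612 and 9113 acinar-like, 2231 and 2276 ductal-like, and 235 and 530 endothelial-like nuclei. They also held 156 and 230 stellate-like, 30 and 71 mural-like, 38 and 97 Schwann-like, 25 and 25 macrophage-like, and 24 and 42 lymphocyte-like nuclei. The beta-like nuclei carried INS at 8646 CPM (UMIs of the gene per 1000000 UMIs of the class) in WT and 5087 CPM in PIGinH11, but IAPP had no UMI in either library and MAFA had 0 and 1. Digestive enzyme RNA was present in every class, and in beta-like nuclei the 8 enzyme genes together took 26883 CPM in WT and 4796 CPM in PIGinH11.

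Each of the 8 genes had its own distribution over the classes, and for 5 of them the class with the highest CPM was the same in both libraries. These were PDE4D in alpha-like, PDE3B in lymphocyte-like, PDE4B in macrophage-like, PDE1A in mural-like and PDE8B in stellate-like nuclei. For PDE8B in both libraries and PDE4B in PIGinH11, the interval of the highest class overlapped that of the next. The class differed for PDE10A (endothelial-like in WT, beta-like in PIGinH11), PDE3A (ductal-like, mural-like) and PDE7B (endothelial-like, macrophage-like). For PDE7B the WT endothelial-like interval overlapped the stellate-like one. Over the 11 classes the Pearson r of log2(CPM + 5) between the libraries ranged from 0.767 for PDE3A to 0.957 for PDE4D, as a description of points that share their libraries.

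**Figure D1:**
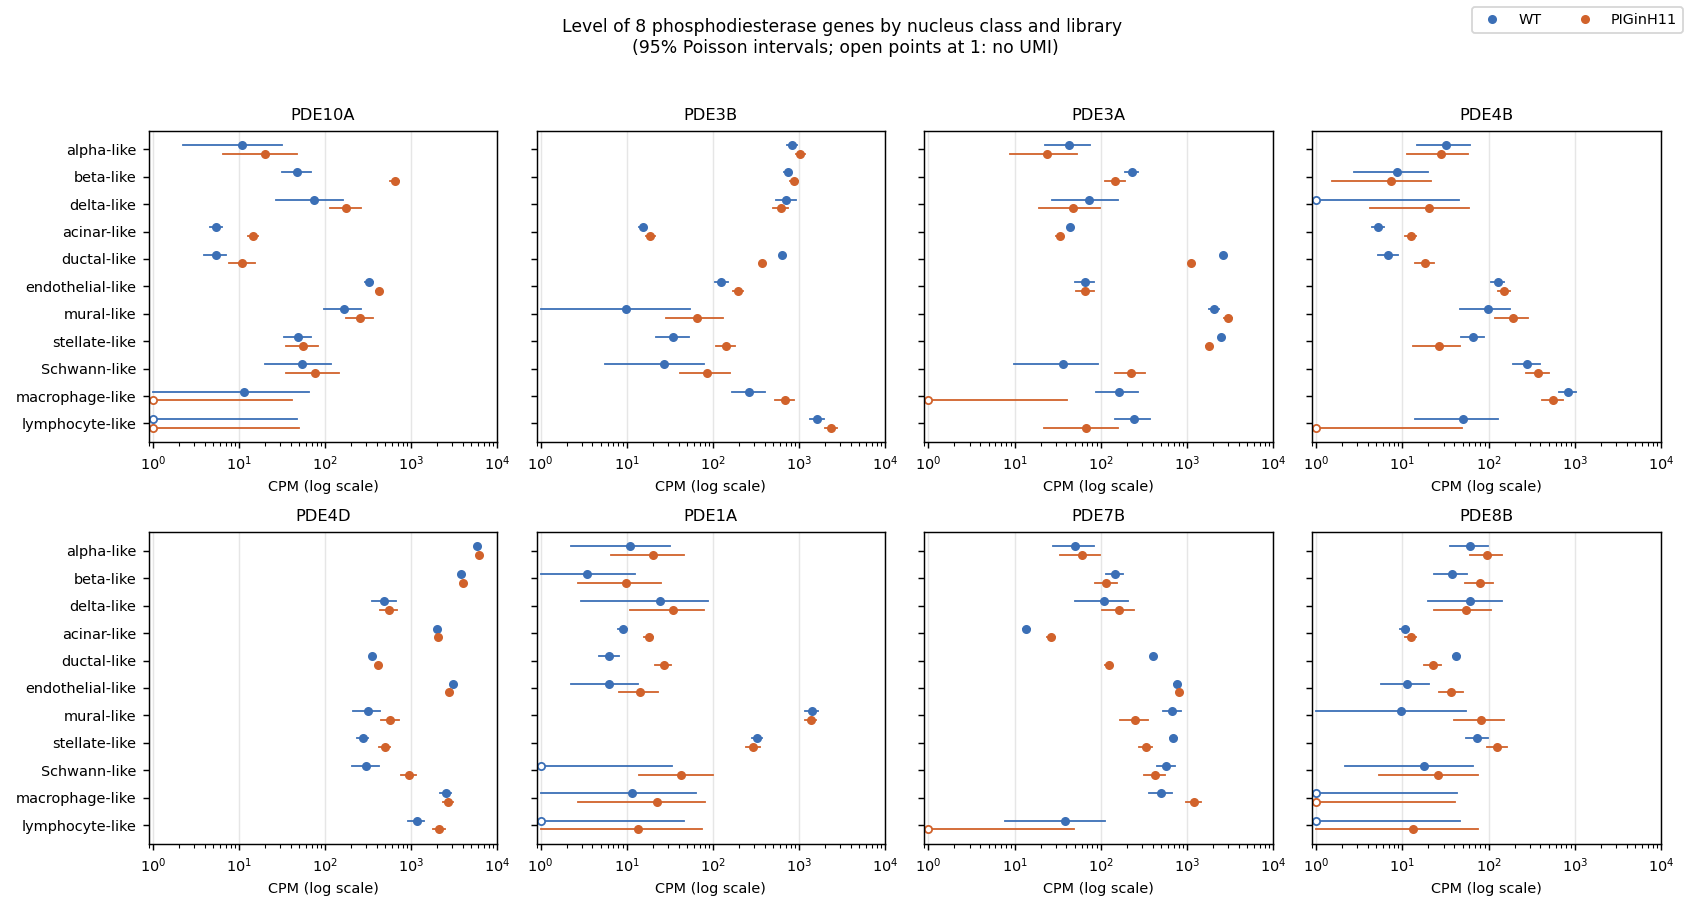
Level of each of the 8 genes in 11 nucleus classes, in CPM on a log axis, with WT in blue and PIGinH11 in orange; bars are 95% Poisson intervals of the UMI count and open points at 1 mark classes without a UMI. PDE10A in beta-like nuclei stood at 47.8 CPM in WT and 643 CPM in PIGinH11, while PDE4D stayed near 3770 and 3981 CPM in the same nuclei.

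PDE10A, an enzyme that takes both cyclic nucleotides and is best known from striatal neurons, was highest in the endothelial nuclei of the WT pancreas. In WT it reached 322 CPM in endothelial-like nuclei (interval 288 to 360), from 313 UMIs. The mural-like level followed at 165 CPM, and its interval (96.3 to 265) did not overlap the endothelial one. The delta-like (73.4 CPM), Schwann-like (54.1 CPM), stellate-like (48.8 CPM) and beta-like (47.8 CPM) levels came next, each with an interval overlapping that of its neighbour in the order. Acinar-like and ductal-like nuclei had 5.38 and 5.36 CPM, and lymphocyte-like nuclei had no UMI, which allows up to 38.0 CPM.

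In the PIGinH11 library the beta-like nuclei moved from the sixth to the first place in that order. PDE10A had 28 UMIs in WT beta-like nuclei (47.8 CPM, 31.8 to 69.1) and 261 UMIs in PIGinH11 beta-like nuclei (643 CPM, 567 to 726). The ratio of CPM was 13.4-fold, or 3.75 on the log2 scale (3.18 to 4.37). Among the 6856 genes with at least 20 UMIs in beta-like nuclei over both libraries, 8 had a ratio at least as high, PDE10A included. Of the 3768 genes that reached 20 UMIs in WT and in PIGinH11 separately, no other had as high a ratio. These are the values the gene was chosen on.

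The higher PDE10A count came from many beta-like nuclei. A PDE10A UMI was present in 18 of 117 WT nuclei (15.4%, 9.38 to 23.2%) and in 73 of 143 PIGinH11 nuclei (51.0%, 42.6 to 59.5%), although the median depth of these nuclei was 4539 UMIs in WT and 1998 UMIs in PIGinH11. With each nucleus thinned to 500 UMIs the shares were 4.27% (1.40 to 9.69%) and 24.5% (17.7 to 32.4%). For comparison, acinar-like nuclei had a UMI in 1.52% of WT nuclei (median depth 2789 UMIs) and 2.03% of PIGinH11 nuclei (median depth 1150 UMIs). Thinned to 500 UMIs, the acinar-like shares were 0.406% and 0.922%, and the acinar-like log2 ratio of CPM was 1.45 (1.14 to 1.75). At the other end, 20 PIGinH11 beta-like nuclei held at least 5 UMIs, up to 23 in one nucleus, against 1 WT nucleus with 5 UMIs. The 5 richest PIGinH11 nuclei held 24.5% of the PDE10A UMIs, and 70 of the 143 nuclei held none.

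**Figure D2:**
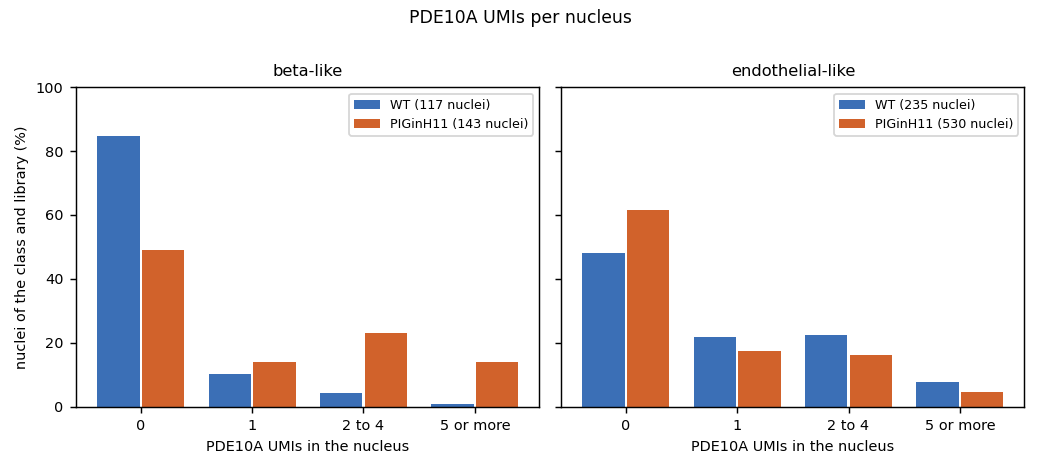
Share of nuclei (%, from 0 to 100) with 0, 1, 2 to 4, or 5 or more PDE10A UMIs in beta-like and endothelial-like nuclei, WT in blue and PIGinH11 in orange. In beta-like nuclei 99 of 117 WT nuclei and 70 of 143 PIGinH11 nuclei had no UMI. In endothelial-like nuclei 113 of 235 WT nuclei and 327 of 530 PIGinH11 nuclei had no UMI. The median depths of these endothelial-like nuclei were 3955 UMIs in WT and 1447 UMIs in PIGinH11. With each nucleus thinned to 500 UMIs, the endothelial-like shares with a UMI were 13.6% in WT and 13.2% in PIGinH11.

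Both sub-clusters that made up the beta-like class showed the difference. In the larger one PDE10A was at 53.7 CPM in 76 WT nuclei and 645 CPM in 71 PIGinH11 nuclei (log2 ratio 3.59, 2.99 to 4.23). In the smaller one it was at 19.7 CPM in 41 WT nuclei, from only 2 UMIs, and 633 CPM in 72 PIGinH11 nuclei (5.00, 3.08 to 8.09). The endothelial marker list, the list of the class where WT PDE10A was highest, summed to 52.9 CPM in WT and 111 CPM in PIGinH11 beta-like nuclei. In endothelial-like nuclei the same 10 markers summed to 7447 and 6949 CPM. In beta-like nuclei 8 of the 10 were detected in WT, where VWF and ROBO4 were at 0, and 9 in PIGinH11, where EGFL7 was at 0. In the PIGinH11 beta-like nuclei the PDE10A level stood above the summed level of the 10 endothelial markers. The part of endothelial RNA in the PDE10A difference was not tested.

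Among the other endocrine classes only the delta-like nuclei had enough UMIs for a PDE10A ratio, and that ratio was lower than the beta-like one. Alpha-like nuclei had 3 UMIs in WT (10.8 CPM) and 5 in PIGinH11 (20.0 CPM), too few for a ratio. Delta-like nuclei had 6 and 26 UMIs, or 73.4 and 177 CPM, with a log2 ratio of 1.27 whose interval (-0.04 to 2.84) held 0. The 33 gamma-like nuclei of the PIGinH11 library had 3 UMIs (38.3 CPM), and the WT library had only 3 gamma-like nuclei. An endocrine sub-cluster that met the acinar markers best and was left unnamed held 11 WT nuclei without a PDE10A UMI and 128 PIGinH11 nuclei with 8 UMIs (63.6 CPM). In endothelial-like nuclei PDE10A was 1.31-fold higher in PIGinH11, at 424 CPM against 322 CPM (log2 ratio 0.39, 0.18 to 0.60). The log2 ratio was 0.68 (0.42 to 0.94) in endothelial-like cluster 10 and 0.10 (-0.27 to 0.47) in cluster 17, and cluster 16 held 5 WT and 168 PIGinH11 nuclei.

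The symbol-matched genes near PDE10A that are given here had lower ratios in beta-like nuclei. On one side SFT2D1 had 6 and 12 UMIs in WT and PIGinH11 (log2 ratio 1.53, 0.00 to 3.23), and RPS6KA2 had 11 and 4 UMIs. On the other side QKI had 33 and 29 UMIs (log2 ratio 0.34, -0.43 to 1.11). PDE10A lies on chromosome 1 from 3120418 to 3394236 of Sscrofa11.1, by the RefSeq annotation. On its left and right, the nearest annotated genes matched by symbol to the count matrices lie 527 kb and 1338 kb away. Annotated genes without such a match were passed over, so closer genes may exist.

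PDE4D, a cyclic AMP enzyme that is inhibited by rolipram, was highest in the alpha-like and then the beta-like nuclei among the 11 compared classes. Alpha-like nuclei had 5817 CPM in WT (5537 to 6108) and 6156 CPM in PIGinH11 (5852 to 6472), and every one of the 64 and 78 nuclei held a UMI. Beta-like nuclei had 3770 and 3981 CPM, from 2208 and 1617 UMIs, with a log2 ratio of 0.08 (-0.01 to 0.17). Delta-like nuclei were far lower, with 490 CPM in WT and 551 CPM in PIGinH11. Endothelial-like (3092 and 2730 CPM), macrophage-like (2506 and 2681 CPM) and acinar-like nuclei (1995 and 2026 CPM) also carried the gene, and ductal-like nuclei had 347 and 409 CPM. PDE4D differed 2-fold or more in Schwann-like nuclei alone among the 11 classes, at 297 CPM in WT and 932 CPM in PIGinH11, from 33 and 109 UMIs (log2 ratio 1.65, 1.07 to 2.26). In those nuclei the 9 acinar markers, all detected in both libraries, summed to 2876 CPM in WT and 7018 CPM in PIGinH11, and acinar-like nuclei are rich in PDE4D. Their part in the Schwann-like result was not tested, and the log2 ratio was -1.64 when only nuclei under 1300 UMIs were kept.

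PDE4B, the related enzyme known for its role in immune cells, was highest in macrophage-like nuclei, at 831 CPM in WT (72 UMIs, 651 to 1047) and 556 CPM in PIGinH11 (50 UMIs, 413 to 733). Schwann-like nuclei followed with 279 and 376 CPM, and endothelial-like nuclei had 128 and 152 CPM. In PIGinH11 the macrophage-like and Schwann-like intervals overlapped, and 5 of the 25 macrophage-like nuclei held 76% of the PDE4B UMIs of their class. At 500 UMIs per nucleus, 44% of WT and 8% of PIGinH11 macrophage-like nuclei held a UMI. The Schwann-like shares were 15.8% and 14.4%. Lymphocyte-like nuclei, the other immune class, had only 4 UMIs in WT (50.7 CPM) and 0 in PIGinH11. Beta-like nuclei had 5 and 3 UMIs in all. In stellate-like nuclei PDE4B was lower in PIGinH11, with 11 UMIs (26.3 CPM) against 42 in WT (66.1 CPM), a log2 ratio of -1.33 (-2.44 to -0.35). At 500 UMIs per nucleus it was 0.76, with an interval (-1.85 to 4.15) that held 0.

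PDE3B, the enzyme through which insulin lowers cyclic AMP in adipocytes, was highest in lymphocyte-like nuclei, followed by the alpha-like and beta-like nuclei. In PIGinH11 the macrophage-like level lay between the beta-like and delta-like levels. Lymphocyte-like nuclei had 1623 CPM in WT and 2349 CPM in PIGinH11, from 128 and 175 UMIs. The 5 richest of the 24 WT and 42 PIGinH11 nuclei held 44.5% and 56% of these UMIs. Alpha-like (824 and 1034 CPM), beta-like (739 and 869 CPM) and delta-like nuclei (710 and 613 CPM) were close to each other, and in WT the intervals of neighbouring endocrine classes overlapped. In beta-like nuclei the log2 ratio was 0.23 (0.03 to 0.44). Differences of 2-fold or more appeared in stellate-like nuclei, at 34.6 CPM in WT (22 UMIs) and 141 CPM in PIGinH11 (59 UMIs), and in macrophage-like nuclei, at 266 CPM (23 UMIs) and 690 CPM (62 UMIs). The log2 ratios were 2.03 (1.30 to 2.80) and 1.38 (0.67 to 2.13). The stellate-like ratio was 0.71 with doublets kept and 0.61 (-0.93 to 2.24) at a higher doublet rate. Lymphocyte markers summed to 34.6 CPM in WT and 100 CPM in PIGinH11 macrophage-like nuclei, with 2 and 3 of 8 markers detected, and their part in the macrophage-like result was not tested.

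PDE3A, the paralog of PDE3B known from heart, platelets and smooth muscle, was a gene of ductal, stellate and mural nuclei. Ductal-like nuclei had 2654 CPM in WT (22774 UMIs) and 1126 CPM in PIGinH11 (3694 UMIs). Stellate-like nuclei had 2458 and 1791 CPM, and mural-like nuclei had 2071 and 3034 CPM. The ductal log2 ratio was -1.24 (-1.29 to -1.19), the stellate ratio -0.46 (-0.58 to -0.33) and the mural ratio 0.55 (0.30 to 0.80). Beta-like nuclei had 230.5 CPM in WT and 147.7 CPM in PIGinH11, a log2 ratio of -0.64 (-1.11 to -0.19). In the PIGinH11 library the 33 gamma-like nuclei stood apart from the other endocrine classes with 1200 CPM (94 UMIs), and 26 of the 33 held a UMI.

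The lower ductal level of PDE3A held in each of the 4 ductal-like clusters. Cluster 5 had 2650 CPM in WT and 930.2 CPM in PIGinH11, and cluster 6 had 1999 and 588 CPM. The levels of cluster 7 were 3028 and 1564 CPM, and those of cluster 14 were 1015 and 126 CPM. The log2 ratios ran from -3.01 in cluster 14 to -0.95 in cluster 7. A UMI was found in 89.6% of WT nuclei (88.3 to 90.8%) and 49.9% of PIGinH11 nuclei (47.8 to 51.9%) at median depths of 3252 and 967 UMIs. At 500 UMIs per nucleus the shares were 61.0% and 32.2%. The share of acinar-like nuclei with a UMI was 13.5% in WT and 5.00% in PIGinH11, at median depths of 2789 and 1150 UMIs. At 500 UMIs per nucleus the acinar-like shares were 3.31% and 2.61%.

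PDE7B, a cyclic AMP enzyme that rolipram does not inhibit, was spread over endothelial, stromal, Schwann, macrophage and ductal nuclei. Schwann-like nuclei had 577 CPM in WT and 427 CPM in PIGinH11, above the ductal-like level in both libraries. Ductal-like nuclei had 407 CPM in WT (3495 UMIs) and 123 CPM in PIGinH11 (404 UMIs), a log2 ratio of -1.72 (-1.88 to -1.58). All 4 ductal-like clusters had the lower level in PIGinH11, with log2 ratios from -2.06 to -0.80. The highest ductal PDE7B level was in cluster 14, at 1943 CPM in WT and 1116 CPM in PIGinH11. Stellate-like nuclei had 699 and 335 CPM (log2 ratio -1.06, -1.35 to -0.79), and mural-like nuclei had 671 and 247 CPM (-1.44, -2.11 to -0.80). The stellate-like ratio was under 2-fold in 4 of 11 alternatives: -0.99 without the Harmony correction between libraries, -0.85 as a mean over nuclei, -0.75 at 500 UMIs per nucleus, and 0.85 (-0.81 to 3.19) when only nuclei under 1300 UMIs were kept. Macrophage-like nuclei went the other way, from 497 CPM (43 UMIs) to 1202 CPM (108 UMIs), a log2 ratio of 1.27 (0.75 to 1.82). Endothelial-like nuclei had 763 and 809 CPM and differed by less than the counting interval (0.08, -0.06 to 0.23).

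PDE3B was also lower in PIGinH11 ductal-like nuclei, at 375 CPM against 635 CPM in WT, but by less than 2-fold (log2 ratio -0.76, -0.85 to -0.67). All 4 clusters had this direction, with log2 ratios from -1.41 to -0.69. PDE4D, in contrast, was within 1.18-fold in the whole ductal-like class, and it was higher in 3 of the clusters and lower in cluster 7. The 10 ductal markers summed to 47715 CPM in WT and 37808 CPM in PIGinH11 ductal-like nuclei, and the 9 acinar markers to 786 and 1813 CPM, all of them detected. The ductal sum was carried by the bicarbonate transporter gene SLC4A4 (26859 and 20632 CPM). The marker CFTR, the cyclic AMP-regulated chloride channel, was called lower, at 2078 and 456 CPM (log2 ratio -2.19, -2.26 to -2.11), and the other 9 were within 2-fold, from CACHD1 (-0.95) to SPON1 (0.45). Their part in the ductal differences was not tested.

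**Figure D3:**
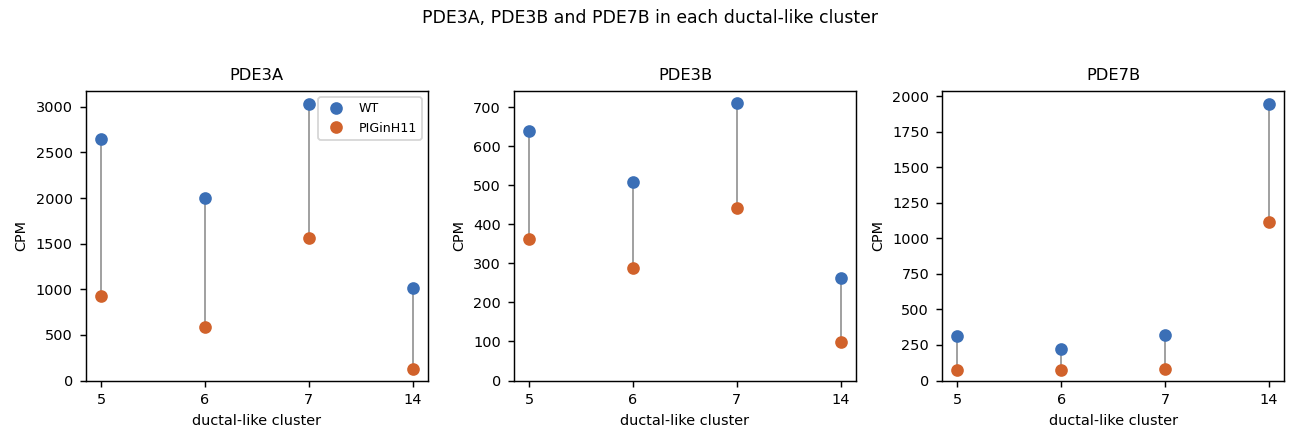
PDE3A, PDE3B and PDE7B levels in CPM (axes from 0) in ductal-like clusters 5, 6, 7 and 14, with WT in blue, PIGinH11 in orange and a grey line joining the libraries. The PIGinH11 point lies below the WT point in every cluster for all 3 genes, for PDE3A by a log2 ratio of -0.95 to -3.01.

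PDE1A, a calcium- and calmodulin-activated enzyme of smooth muscle, marked the mural-like nuclei. These had 1400 CPM in WT (144 UMIs, 1181 to 1649) and 1368 CPM in PIGinH11 (166 UMIs, 1168 to 1593), a log2 ratio of -0.03 (-0.36 to 0.30). Stellate-like nuclei were next with 327 and 292 CPM, and both libraries placed all other classes below 50 CPM. Ductal-like nuclei had 54 UMIs in WT (6.29 CPM) and 88 UMIs in PIGinH11 (26.8 CPM), a log2 ratio of 2.09 (1.59 to 2.61) at a level near that of acinar-like nuclei, which had 8.95 and 17.9 CPM. The higher ductal level was not found in every cluster: cluster 5 had 5.70 and 40.3 CPM (2.82, 2.06 to 3.63), while cluster 7 had 4.84 and 4.72 CPM (-0.04, -1.55 to 1.31). With nuclei under 1300 UMIs alone the ductal-like ratio was 0.75 (-0.22 to 1.87).

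PDE8B, a cyclic AMP enzyme with high affinity for its substrate, was low in the 11 compared classes. It was highest among them in stellate-like nuclei, at 74.0 CPM in WT (47 UMIs) and 127 CPM in PIGinH11 (53 UMIs). In both libraries the stellate-like interval overlapped that of the next class in the order. Alpha-like nuclei had 61.2 and 96.2 CPM, and beta-like nuclei had 37.6 CPM (22 UMIs) and 78.8 CPM (32 UMIs). The beta-like log2 ratio was 1.07 (0.24 to 1.92), and with a scaling by the median ratio of well counted genes it was 0.98 and under the 2-fold limit. Endothelial-like nuclei had 11.3 and 36.7 CPM (1.70, 0.71 to 2.80), and the endothelial-like log2 ratio was 0.90 with doublets kept and 0.41 (-1.59 to 2.93) at 500 UMIs per nucleus. Most of the endothelial-like UMIs were in cluster 17, with 6 in 57 WT nuclei and 31 in 97 PIGinH11 nuclei (2.15, 0.86 to 3.70). In cluster 10, with 173 and 265 nuclei, the levels were 7.26 and 8.92 CPM (0.30, -1.68 to 2.35). The gamma-like nuclei stood above all of these, with 447 CPM (35 UMIs) in PIGinH11, where 19 of 33 nuclei held a UMI, and 433 CPM in WT, from 9 UMIs in 3 nuclei.

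The 8 genes were called in both directions. A gene was called when its CPM differed at least 2-fold, the interval of the log2 ratio lay on one side of 0, and both libraries together had at least 20 UMIs. In beta-like nuclei 2 of 6 counted members were higher (PDE10A, which was chosen for it, and PDE8B) and 0 lower, where 5.6% and 3.92% of all counted genes were called higher and lower. Their median log2 ratio was 0.16, against 0.04 over all 6856 counted genes. In alpha-like nuclei 0 of 4 were called in either direction (background 4.71% higher and 5.14% lower), and in delta-like nuclei 0 of 4 (6.95% and 5.38%).

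In ductal-like nuclei 3 of 8 were higher (PDE10A, PDE4B and PDE1A, all under 30 CPM, with PDE10A under 2-fold in 4 of 11 alternatives) and 2 lower (PDE3A and PDE7B), against 16.2% and 2.84% of all counted genes. The members' median log2 ratio was -0.26, and that of the 14911 counted genes was 0.19. In acinar-like nuclei the same 3 genes were higher and 0 lower, in a class where 20.2% of all genes were called higher and 2.75% lower. PDE10A stood there at 5.38 and 14.7 CPM, PDE4B at 5.17 and 12.4 CPM, and PDE1A at 8.95 and 17.9 CPM. The members' median was 0.61, against 0.29 over 18994 genes.

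In endothelial-like nuclei 1 of 8 was higher (PDE8B) and 0 lower, with 6.7% and 3.63% as background, and in stellate-like nuclei 1 of 8 was higher (PDE3B) and 2 lower (PDE4B and PDE7B), with 6.97% and 4.56%. In mural-like nuclei 0 of 6 were higher and 1 lower (PDE7B; 9.08% and 8.16%). In macrophage-like nuclei 2 of 4 were higher (PDE3B and PDE7B) and 0 lower (8.48% and 7.07%). PDE3A could not be counted there, with 14 UMIs in WT and none in PIGinH11. The 10 ductal markers summed to 3638 CPM in WT and 467 CPM in PIGinH11 macrophage-like nuclei, with 10 and 8 of them detected, and their part in these values was not tested. In Schwann-like nuclei 2 of 4 were higher (PDE3A and PDE4D) and 0 lower (10.9% and 8.48%). In lymphocyte-like nuclei 0 of 3 were higher and 1 lower (PDE3A; 5.59% and 5.54%).

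The PDE3A values in those last 2 classes rested on few nuclei. Schwann-like nuclei had 4 UMIs in WT (36.1 CPM) and 26 in PIGinH11 (222 CPM), a log2 ratio of 2.62 (1.10 to 4.60) that was -1.27 when only nuclei under 1300 UMIs were kept. Lymphocyte-like nuclei had 19 UMIs in WT (241 CPM), all in 2 nuclei, and 5 in PIGinH11 (67.1 CPM), a log2 ratio of -1.84 (-3.62 to -0.37) that changed sign when doublets were kept (1.89, -1.45 to 7.51). The 10 ductal markers, all detected, summed to 4209 CPM in WT and 2000 CPM in PIGinH11 lymphocyte-like nuclei, and their part in this value was not tested.

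**Figure D4:**
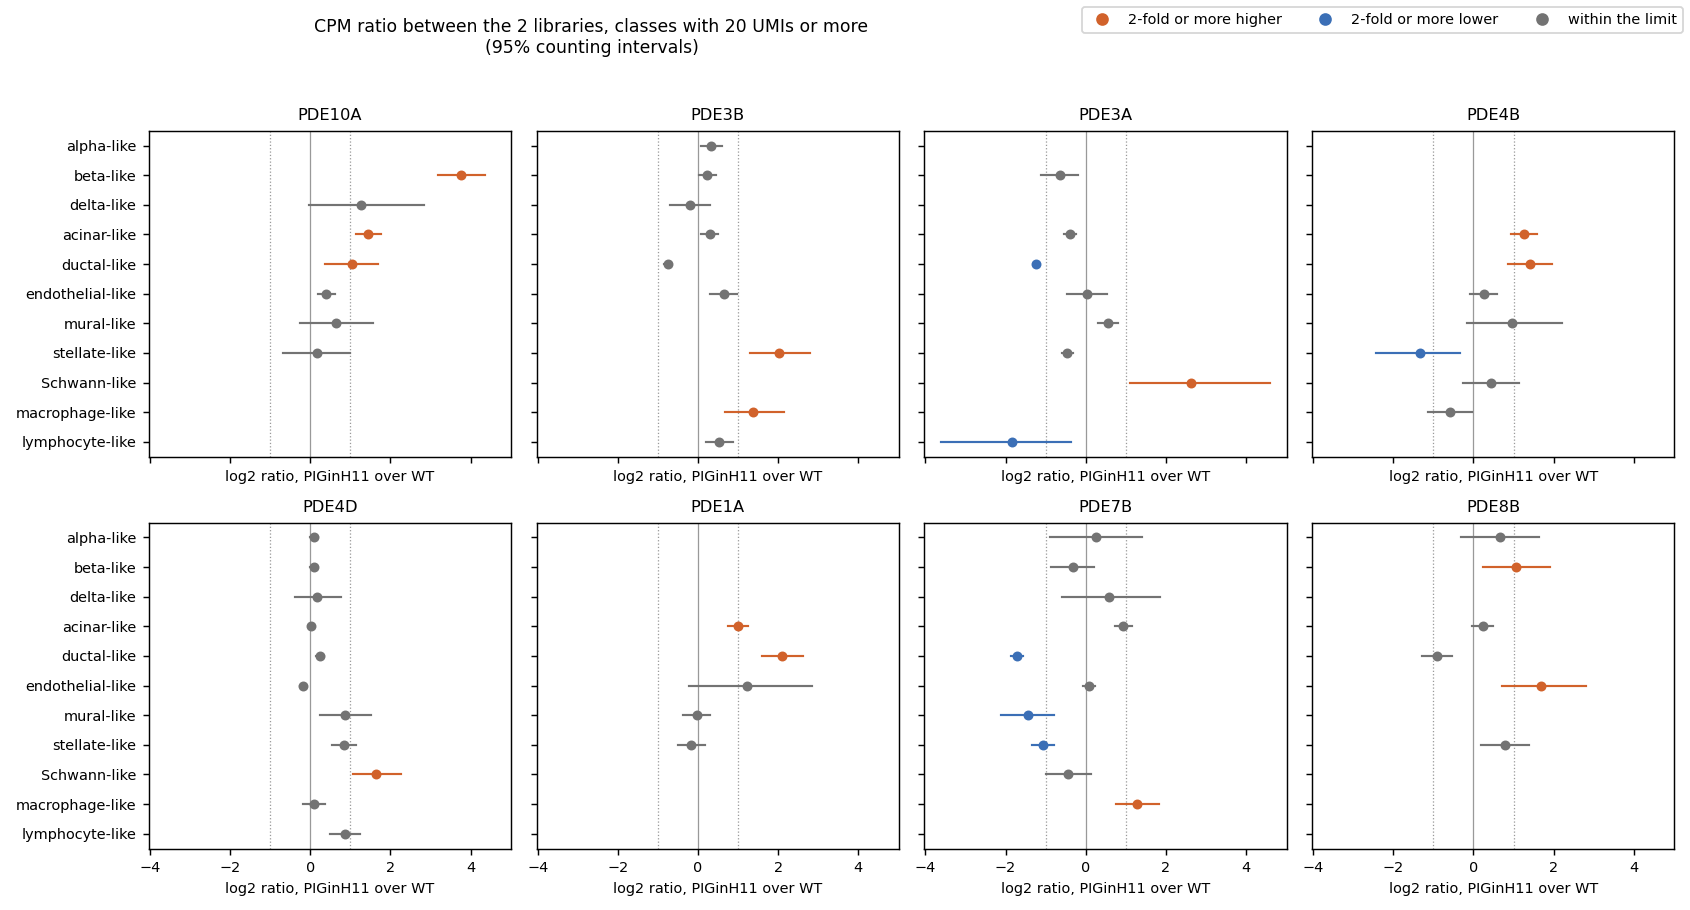
Log2 ratio of CPM, PIGinH11 over WT, for each of the 8 genes in every class where both libraries together had at least 20 UMIs, with 95% counting intervals; orange points were called higher, blue points lower, and grey points neither, and dotted lines mark 2-fold. The PDE10A point in beta-like nuclei, at 3.75, lies farthest from 0, and PDE4D lies between -0.18 and 0.87 in all classes but Schwann-like nuclei, where it is at 1.65.

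To compare genes with each other, CPM was divided by the length of the annotated gene, introns included. The study does not state whether intronic reads were counted. In its read statistics the share mapped to the transcriptome was above the exonic share in both libraries, which exonic reads alone would not give. No other length was tried. On this scale (CPM per 100 kb of gene) PDE3B led in beta-like nuclei, with 375 in WT and 441 in PIGinH11. PDE4D, the longest of the genes at 1509 kb, had 250 and 264, PDE8A had 236 and 280.0, and PDE1C had 138 and 159. PDE10A was at 17.5 in WT and 235 in PIGinH11, where it had rank 4 among the phosphodiesterases, close to PDE4D. In ductal-like nuclei PDE3A led in WT with 818, followed by PDE9A with 750.0, PDE8A with 448 and PDE3B with 322. In PIGinH11 the order was PDE9A with 696, PDE8A with 619, PDE3A with 347 and PDE3B with 190.3. In endothelial-like nuclei PDE8A led in both libraries, with 382 and 375, and PDE10A had 118 and 155.

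**Figure D5:**
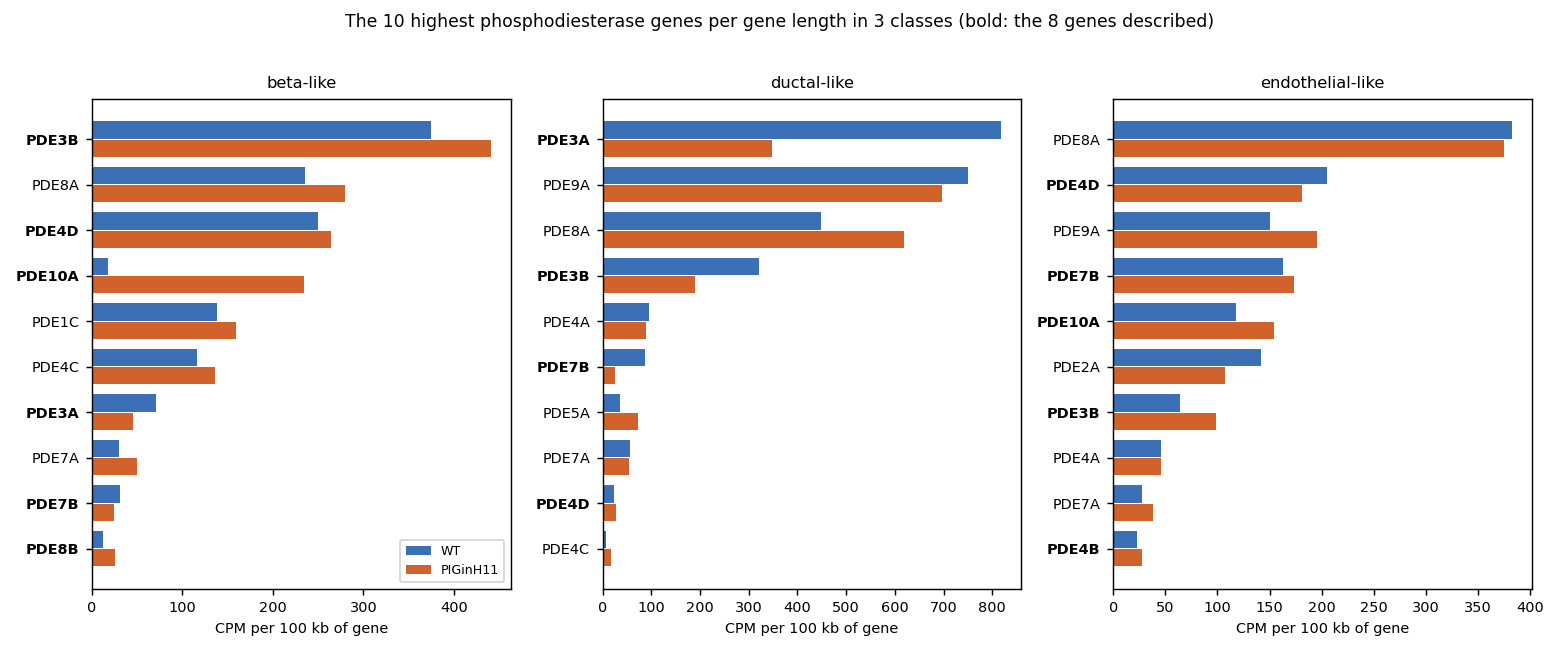
Level per gene length (CPM per 100 kb) of the 10 highest phosphodiesterase genes in beta-like, ductal-like and endothelial-like nuclei, with bars from 0, WT in blue and PIGinH11 in orange, and the 8 genes in bold. PDE10A reached 235 in PIGinH11 beta-like nuclei, against 17.5 in WT, and PDE3A had rank 1 in WT and rank 3 in PIGinH11 ductal-like nuclei.

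Of the 13 other phosphodiesterases, 4 could be counted in beta-like nuclei and 0 were called, where 5.6% of all counted genes were called higher and 3.92% lower. PDE1C, which is calmodulin-activated like PDE1A, had 818 CPM in WT and 941 CPM in PIGinH11 there (log2 ratio 0.20, 0.00 to 0.40), and PDE8A had 348 and 414 CPM (0.25, -0.06 to 0.55). In ductal-like nuclei 4 of 9 counted were higher (PDE1C, PDE4C, PDE5A and PDE11A) and 0 lower, against 16.2% and 2.84% of all counted genes. The best counted was PDE5A, the cyclic GMP enzyme blocked by sildenafil, at 53.4 and 110 CPM (1.04, 0.84 to 1.24). PDE9A, which has a high affinity for cyclic GMP, had 725 and 673 CPM in the same nuclei (-0.11, -0.18 to -0.04). In acinar-like nuclei 4 of 12 were higher (PDE1C, PDE2A, PDE4C and PDE6C, each under 20 CPM; background 20.2%) and PDE9A was lower (background 2.75%), at 32.7 and 15.3 CPM (-1.10, -1.31 to -0.89), and PDE8A, with 224 and 258 CPM, was within 2-fold. In macrophage-like nuclei 1 of 2 counted was lower, PDE8A at 450.4 and 200.3 CPM, from 39 and 18 UMIs (background 7.07%). PDE8A was also lower in Schwann-like nuclei, as 1 of 3 counted, at 541 and 222 CPM (background 8.48%). In alpha-like nuclei 1 of 4 was lower, PDE7A at 166 and 72.1 CPM (background 5.14%).

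The enzymes and effectors on either side of the phosphodiesterases were counted by the same rule over 55 genes: adenylyl and guanylyl cyclases, the G proteins of adenylyl cyclase, protein kinases A and G, Epac, anchoring proteins, cyclic AMP-responsive transcription factors and cyclic nucleotide-gated channels. In beta-like nuclei 0 of the 28 that could be counted were called in either direction (background 5.6% and 3.92%). Among them, the exchange factor RAPGEF4 (Epac2), which couples cyclic AMP to insulin granule release, had 348 CPM in WT and 475 CPM in PIGinH11 (log2 ratio 0.45, 0.16 to 0.74). The catalytic subunit gene PRKACB had 215 and 256 CPM, and the adenylyl cyclase gene ADCY9 had 159 and 222 CPM (0.48, 0.05 to 0.91).

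In alpha-like nuclei 2 of 25 were higher and 1 lower, against 4.71% and 5.14% of all counted genes. PRKG1, the cyclic GMP-dependent kinase, had 263 CPM in WT and 942 CPM in PIGinH11 (1.84, 1.46 to 2.24), ADCY9 had 86.4 and 188 CPM, and the regulatory subunit gene PRKAR2A was lower with 144 and 44.1 CPM. In delta-like nuclei 2 of 16 were higher (background 6.95% higher and 5.38% lower), ADCY1 (159 and 327 CPM) and PRKG1, which had no UMI in 24 WT nuclei and 40 UMIs (272 CPM) in 57 PIGinH11 nuclei. In ductal-like nuclei 8 of 46 were higher and 1 lower, which is near the shares over all counted genes (16.2% and 2.84%). The highest of those above was PRKG1, at 18.3 and 59.2 CPM (1.69, 1.38 to 2.01), and the lower one was GUCY1B1, a subunit of the nitric oxide-sensitive guanylyl cyclase, at 67.7 and 32.0 CPM. ADCY2, ADCY8, GUCY1A2, AKAP12, GNAI1 and CNGB3 were also higher, each under 50 CPM in both libraries.

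In acinar-like nuclei 15 of 53 were higher and 0 lower, in the class with 20.2% and 2.75% over all counted genes. The protein kinase A gene PRKACB was the best counted of them, at 50.8 and 102 CPM (1.01, 0.90 to 1.11), and ADCY2 had 2.99 and 28.2 CPM (3.24, 2.90 to 3.59). ADCY1, ADCY5, ADCY8, GUCY1A2, NPR1, NPR2, PRKG1, PRKG2, RAPGEF3, AKAP5, CNGA1, CNGA3 and CNGB3 were the rest, each under 40 CPM. In stellate-like nuclei 2 of 33 were higher, among them RAPGEF4 (58.3 and 148.2 CPM; background 6.97%). Endothelial-like nuclei had 2 of 34 higher (PRKAR2B and AKAP12, background 6.7%), and mural-like nuclei had 1 of 18 (PRKAR2B, 38.9 and 157 CPM, background 9.08%). Macrophage-like, lymphocyte-like and Schwann-like nuclei had none of 8, 7 and 12 called in either direction. The backgrounds were 8.48% higher and 7.07% lower, 5.59% and 5.54%, and 10.9% and 8.48%. With so few genes counted, a count of 0 is near these shares.

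Genes distributed like each member were sought by Pearson r of log2(CPM + 5) over 22 points, the 11 classes in each library, among 12064 genes. The points share their libraries and differ in depth, so the values describe likeness only. PDE10A was most like GALNT18 (0.894), ZNF423 (0.829) and JAM3 (0.823). The 22 points include the beta-like ones of both libraries, so a higher beta-like level in PIGinH11 was partly built into this choice. In beta-like nuclei GALNT18 had 225 CPM in WT and 505 CPM in PIGinH11, and ZNF423 had 17.1 and 64.0 CPM. Both were called higher (background 5.6%), whereas JAM3 had 58.0 and 68.9 CPM. In endothelial-like nuclei GALNT18 was lower in PIGinH11 (442 and 293 CPM), unlike PDE10A.

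PDE1A had the closest company, EBF2 (0.944), ANO1 (0.930) and the pericyte receptor PDGFRB (0.923). PDE4B was most like BCAR3 (0.889), MEF2C (0.865) and P2RX7 (0.842), and PDE3B was most like DIPK1A (0.878), NSMCE1 (0.861) and RSF1 (0.852). PDE8B was most like SETBP1 (0.875), NOVA1 (0.874) and MIER2 (0.867), and PDE7B was most like GLUL (0.843), ABCA1 (0.840) and SBF2 (0.831). PDE3A was most like LPP (0.834), SLIT2 (0.832) and FBN2 (0.824), and PDE4D, with TMEM164 (0.805) in first place, had the weakest likeness of the 8.

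By the RefSeq annotation of Sscrofa11.1, PDE7B also lies on chromosome 1, from 27958261 to 28425754. PDE3B lies on chromosome 2 from 44416934 to 44614075 and PDE8B on the same chromosome from 86007190 to 86323796. PDE3A is on chromosome 5 (52413503 to 52737771), PDE4B on chromosome 6 (146167262 to 146720105), PDE1A on chromosome 15 (87619049 to 87965068) and PDE4D on chromosome 16 (37897300 to 39406534). In that annotation PDE7B overlaps MTFR2 and PDE8B overlaps WDR41, which had 4 and 5 UMIs and 27 and 20 UMIs in WT and PIGinH11 beta-like nuclei. PDE8B had no symbol in the deposited files and was matched by its gene identifier.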

How the data were processed

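The deposited files held UMI counts per gene and nucleus. The authors made these counts with Cell Ranger (version 3.1.0 in the study's methods, 5.0.0 per the file headers) from reads aligned to Sscrofa11.1. The study states neither whether intronic reads were counted nor how strand was treated. Its read statistics give a transcriptome share above the exonic share in both libraries, which exonic reads alone would not give. Nuclei with 270 to 3700 genes, at most 13000 UMIs and under 10% mitochondrial UMIs were kept, and the highest doublet scores (0.8% for each 1000 barcodes) were removed. Log-normalised values of 2000 variable genes per library, without phosphodiesterases, went through 30 principal components, a Harmony correction between the libraries and Louvain clustering at resolution 1 (python 3.11.15, numpy 2.4.6, scipy 1.17.1, igraph 0.11.9). Clusters were named from marker lists. A cluster led by digestive enzymes (371 WT and 271 PIGinH11 nuclei) stayed unnamed and was left out, as were an endocrine sub-cluster (11 and 128) and an immune sub-cluster (20 and 52) that met the acinar list best. Sums of the 2 libraries were scaled to CPM, with exact Poisson intervals, exact conditional binomial intervals for ratios and Clopper-Pearson intervals for shares, which cover counting error only. A count of 0 was taken to allow 3 counts. The 8 genes, the marker lists and the pathway lists were chosen with earlier results of these data known. Named were the 8 genes, other phosphodiesterases when called, most pathway genes when called, and the 3 genes most like each of the 8. PDE1C and PDE8A in beta-like, PDE8A in acinar-like and PDE9A in ductal-like nuclei were named without being called. Not every other phosphodiesterase was given in the class where it was highest. RAPGEF4, PRKACB and ADCY9 in beta-like nuclei and the neighbours of PDE10A were named after their values were seen. On simulated counts for beta-like nuclei (6842 genes), 96.2% of intervals held the true ratio, all 4-fold genes were called and 1.57% of unchanged genes were called. The simulated counts were Poisson draws around class totals, which is what the intervals assume. They held no clustering of UMIs in single nuclei and no difference between animals, so these shares are not error rates of the real data. Some results are not reported here.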

Additional observations from a re-analysis of the deposited data

Results flagged for a closer look

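For 3 of the genes the libraries differed 2-fold or more in opposite directions in a pair of classes, without overlap of the counting intervals. The difference between the classes was not tested over animals. Each pair joined the gene's highest and lowest called ratios. The share of all genes with such a pair is not given here, so the count has no background to be set against. PDE3A was higher in PIGinH11 Schwann-like nuclei (log2 ratio 2.62) and lower in lymphocyte-like nuclei (-1.84), a gap of 4.47 on the log2 scale. PDE7B was higher in macrophage-like nuclei (1.27) and lower in ductal-like nuclei (-1.72), a gap of 3.00. PDE4B was higher in ductal-like nuclei (1.41) and lower in stellate-like nuclei (-1.33), a gap of 2.74. Under single alternatives PDE3A reached -1.27 in Schwann-like and 1.89 in lymphocyte-like nuclei, and PDE4B reached 0.76 in stellate-like nuclei. Both PDE7B ratios and the ductal-like PDE4B ratio kept their sign under all alternatives.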

How the results depend on the processing

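The PDE10A log2 ratio in beta-like nuclei was positive under all 14 alternatives that gave a value, from 2.94 with nuclei thinned to 500 UMIs to 5.00 in the smaller beta-like sub-cluster alone, an alternative chosen after seeing the data. A limit of 1300 UMIs per nucleus, as the methods print it, left 4 WT beta-like nuclei without a PDE10A UMI and so gave no ratio. The number of members called higher in beta-like nuclei was 1 instead of 2 under that limit, under median-of-ratios scaling, with nuclei thinned, with a minimum of 100 UMIs and in the smaller sub-cluster alone, and 1 was called lower (PDE3A) at a fold limit of 0.5 on the log2 scale. Of 20 called ratios in single classes, 5 of 195 alternative values had the opposite sign. With doublets kept, PDE3A in lymphocyte-like nuclei was at 1.89. Under the limit of 1300 UMIs, PDE3A and PDE4D in Schwann-like nuclei were at -1.27 and -1.64 and PDE7B in stellate-like nuclei at 0.85, from classes with fewer than 20 nuclei in a library. Thinned, PDE4B in stellate-like nuclei was at 0.76. The cause was not tested. The ductal-like ratios of PDE3A (-1.40 to -1.19) and PDE7B (-1.91 to -1.68) stayed past 2-fold under all 11 alternatives. The scaling by the median ratio subtracted 0.23 in acinar-like nuclei, 0.16 in ductal-like nuclei, 0.12 in the stellate class and -0.11 in the Schwann class, and put PDE1A in acinar-like, PDE10A in ductal-like and PDE8B in beta-like nuclei under 2-fold. No paired analysis was possible because each group had 1 library.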
